A study of Mus musculus with 55 samples.

Results

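The genes described here are Hcn2, Hcn3 and Hcn4, which encode subunits of the h-channel, and Pex5l, which encodes the h-channel partner TRIP8b. These 4 genes of the 22800 symbols in the deposited count table were taken by name. They were followed in 54 pyramidal neurons of mouse prefrontal cortex, each sampled by drawing its cytosol into a patch pipette for a sequencing library of its own. The neurons are labelled D1 or D2, after dopamine receptor types, and came from mice with or without a knockout of Fmr1. The study's design text gives the knockout as Fmr1-/y and calls it a model of fragile X syndrome and autism spectrum disorder. There were 6 knockout D1 cells (aged 31 and 32 days), 15 wild-type D1 cells (28 to 34 days), 7 knockout D2 cells (32 days) and 26 wild-type D2 cells (29 to 35 days). The sources used here state neither strain nor animal for any cell, nor the way in which D1 and D2 cells were recognised.

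The h-channel opens on hyperpolarisation and passes a mixed sodium and potassium current, the h-current, which sets resting potential, input resistance and resonance. In cortical pyramidal neurons it is concentrated in the dendrites and is strong in deep-layer cells that project below the cortex. Cyclic AMP binds the cytoplasmic end of each subunit and makes opening easier, strongly so in HCN2 and HCN4 and little in HCN3. TRIP8b binds the same end of the subunits, controls how many channels reach the surface and the dendrite, and opposes the action of cyclic AMP.

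The h-channel subunits are paralogs, so the coding stretch around the longest run shared by Hcn2 and Hcn4 is shown first, to show how far the subunits differ even where they are close. The lines give the coding strand 5′ to 3′ from GENCODE vM21 transcripts on the GRCm38 build. Capitals mark the bases at which the 3 subunits are not all alike.
Hcn2: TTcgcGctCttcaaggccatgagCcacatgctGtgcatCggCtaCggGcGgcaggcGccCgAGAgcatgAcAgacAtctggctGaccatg
Hcn3: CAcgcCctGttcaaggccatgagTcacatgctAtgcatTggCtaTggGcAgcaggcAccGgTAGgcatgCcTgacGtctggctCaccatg
Hcn4: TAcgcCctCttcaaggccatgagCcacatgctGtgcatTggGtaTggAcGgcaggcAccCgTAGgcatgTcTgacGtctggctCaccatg
Each stretch of 90 bases lies within coding exon 4 of its gene. The Hcn2 stretch is chr10:79728920-79729009 on the plus strand, that of Hcn3 chr3:89150964-89151053 on the minus strand and that of Hcn4 chr9:58855552-58855641 on the plus strand. In it, 70 bases were alike in all 3 subunits and 20 were not. Hcn2 matched Hcn3 at 72 bases and Hcn4 at 76, and Hcn3 matched Hcn4 at 81. The longest run of identical coding bases was 33 between Hcn2 and Hcn3, 32 between Hcn2 and Hcn4 and 32 between Hcn3 and Hcn4. No window of 50 coding bases of Hcn2, Hcn3 or Hcn4 was found in a transcript of another gene (0 of 2540, 0 of 2288 and 0 of 3554 windows). For Pex5l, 193 of 1901 such windows (10.2%) also lay in the antisense gene Gm37459.

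Hcn2 (ENSMUSG00000020331) lies at chr10:79716634-79736108 on the plus strand, with 3195 bases of merged exons, and Hcn4 (ENSMUSG00000032338) at chr9:58823412-58863175 on the plus strand, with 6118 bases. The other two share a chromosome and a strand. Hcn3 (ENSMUSG00000028051) lies at chr3:89146074-89160196 on the minus strand, and 711 of its 4154 exonic bases overlap exons of Pklr on the other strand. Pex5l (ENSMUSG00000027674) lies at chr3:32949408-33143247 on the minus strand, has 9 annotated coding transcripts and shares 364 of its 8846 exonic bases with 2 antisense genes. The sources used here do not state whether counting used strand. Reads in these overlaps can therefore not be assigned with certainty.

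Total counts in genes ran between 260943 and 10673072 per cell, and cells differed widely in how many genes had a read. All 6 knockout D1 cells, 9 of 15 wild-type D1, 6 of 7 knockout D2 and 13 of 26 wild-type D2 cells had a read in at least 4000 genes, and are called gene-rich here. Results are given for all cells and for these 34. Fmr1 reads were absent from all 13 knockout cells (6 D1 and 7 D2), and present in 8 of 15 D1 and 13 of 26 D2 cells without the knockout. The receptor genes that lend the labels their names were sparse. Drd1 had reads in 0 of 6 knockout D1, 4 of 15 wild-type D1, 3 of 7 knockout D2 and 2 of 26 wild-type D2 cells, and Drd2 in none of the 54, so the D1 and D2 labels are taken as given and the reads do not show them cell by cell. Pyramidal neuron markers had reads in each group, 7 of 7 genes, with a summed level of 128 to 4535 CPM (counts scaled to a total of 1000000 per cell) over the cells. The labelled side differs between D1 and D2 cells in every case, so side and cell kind cannot be told apart, and no wild-type D1 cell was 32 days old, so genotype and age hardly can. Because no label names the animal, each group counts as 1 sample. No test was made, no p-value is given, and every difference below is a description of these cells.

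**Figure D1:**
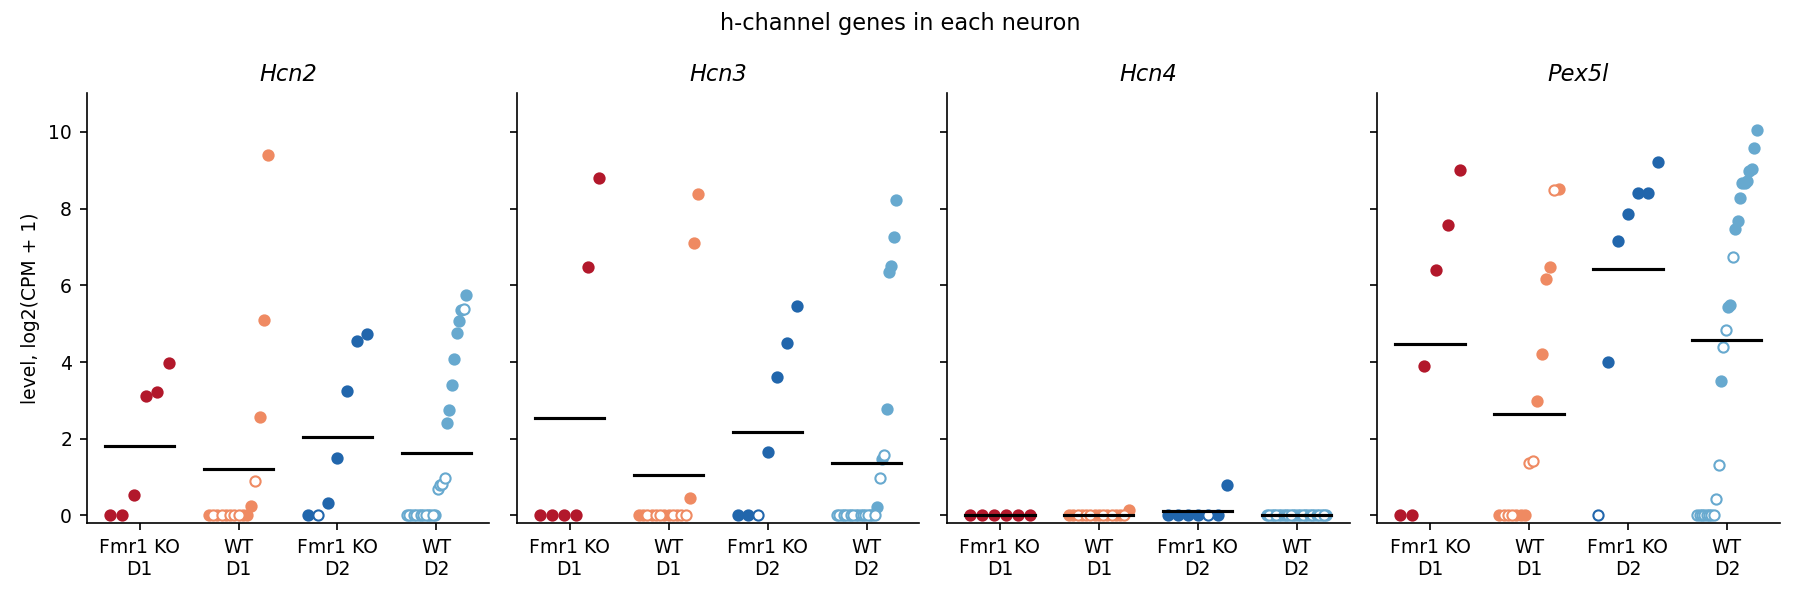
Level of each gene in each of the 54 neurons, as log2(CPM + 1), by group. Each circle is 1 cell, filled where it was gene-rich and open where it was not, and the black line is the mean over cells. Hcn4 stays at or near 0 throughout, Hcn3 is at 0 in most cells and high in a few, and the filled Pex5l circles of D2 cells all lie above 0 while those of D1 cells are divided.

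Pex5l was the member read in the most cells. It had reads in 36 of 54 cells, against 27 for Hcn2, 18 for Hcn3 and 2 for Hcn4. TRIP8b, its product, has no channel activity of its own. The cells with Pex5l reads had a median of 6796 genes with a read, and those without had 2863, so detection went with library complexity. By group, Pex5l was read in 4 of 6 knockout D1 cells (66.7%, exact Clopper-Pearson 95% interval 22.3 to 95.7), 8 of 15 wild-type D1 (53.3%, 26.6 to 78.7), 6 of 7 knockout D2 (85.7%, 42.1 to 99.6) and 18 of 26 wild-type D2 cells (69.2%, 48.2 to 85.7). These intervals take cells as independent draws, although cells may share an animal, so they cover counting error only. They overlap, which is no test of the groups.

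Among gene-rich cells the D1 and D2 cells stood further apart in Pex5l. It was read in 4 of 6 knockout and 5 of 9 wild-type D1 cells, against 6 of 6 knockout and 13 of 13 wild-type D2 cells. With genotypes pooled, 9 of 15 gene-rich D1 cells (60%, interval 32.3 to 83.7) had a Pex5l read. So had 19 of 19 gene-rich D2 cells (100%, interval 82.4 to 100). These intervals, too, take cells as independent draws. Each of these 28 cells had at least 10 such reads, and at a common depth of 250000 reads per cell the expected shares were 58.6% of gene-rich D1 and 99.5% of gene-rich D2 cells. The 6 gene-rich D1 cells without a Pex5l read had 4266 to 8275 genes with a read.

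Over all cells, Pex5l levels were less divided. In knockout D1 cells its lowest, median and highest values were 0, 48.6 and 516 CPM, and in wild-type D1 cells 0, 1.59 and 364 CPM. In knockout D2 cells they were 0, 231 and 590 CPM, and in wild-type D2 cells 0, 34.9 and 1055 CPM. The groups overlapped in full range, since each held cells with no read. The median was lower in D1 than in D2 cells within each genotype, but that of knockout D1 cells lay above that of wild-type D2 cells. The mean was 134 ± 201 CPM in knockout D1 (SD, n = 6), 60.5 ± 125 in wild-type D1 (n = 15), 236 ± 208 in knockout D2 (n = 7) and 193 ± 279 in wild-type D2 cells (n = 26). Over gene-rich cells alone, 3 of 15 D1 cells and 15 of 19 D2 cells exceeded 100 CPM, with a mean of 89.97 ± 154 CPM for D1 cells, against 343 ± 271 CPM for D2 cells.

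**Figure D2:**
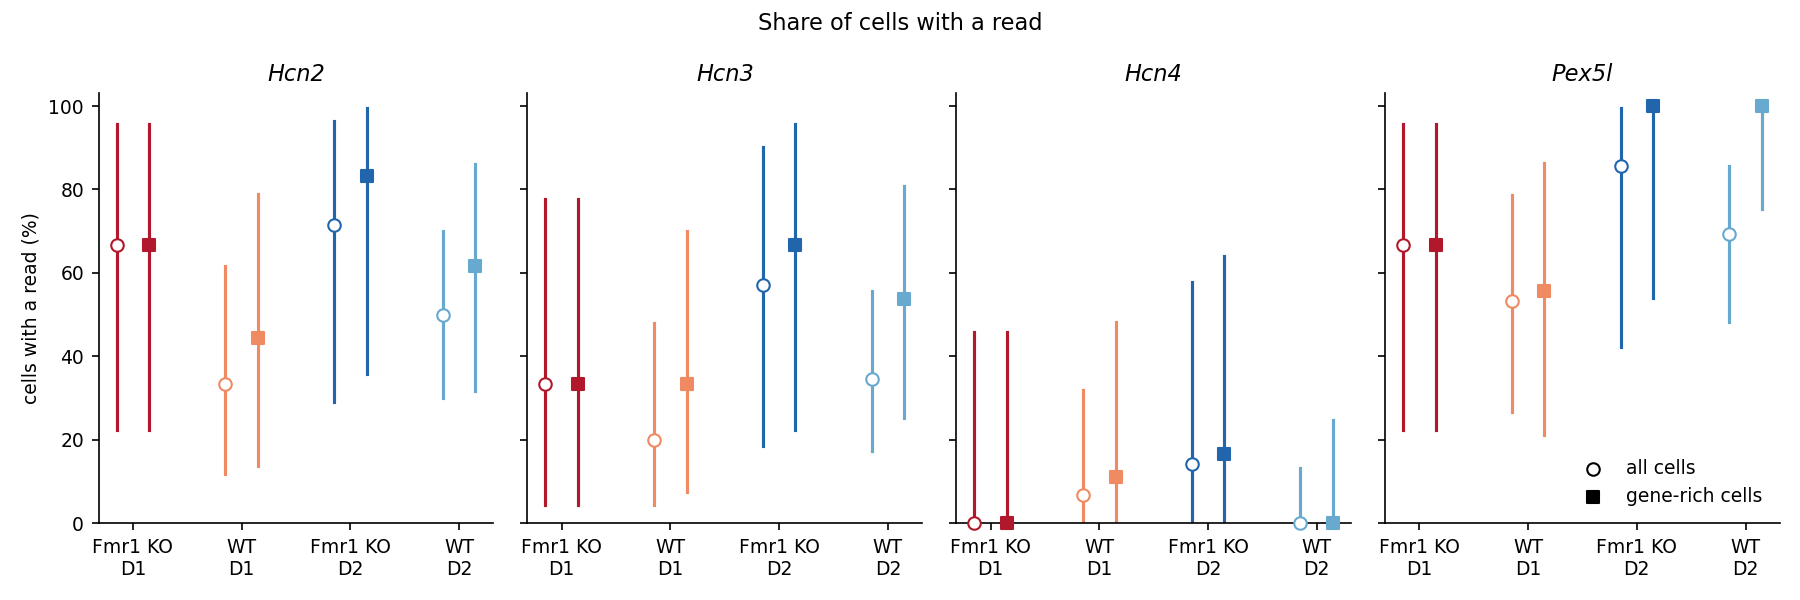
Percent of cells with at least 1 read of each gene, by group, for all cells (open circles) and gene-rich cells (filled squares), with exact Clopper-Pearson 95% intervals as bars. Pex5l stands at 100% in both gene-rich D2 groups, against 66.7% in knockout D1 and 55.6% in wild-type D1 cells. The intervals take cells as independent draws, although cells may share an animal. Those of the groups overlap for every gene, Pex5l among them.

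Differences between groups are those of the mean log2(CPM + 1) over cells, D1 minus D2 or knockout minus wild type. This scale understates differences of genes with few reads. A gene counts as measured in a comparison where its mean is at least 1 CPM and at least 10% of the cells have a read, and a difference of 1 log2 unit, or 2-fold, is the size used for counts. Hcn2, Hcn3 and Pex5l were measured in each of the 4 comparisons and Hcn4 in none. The members are read against all measured genes, because the median gene was itself shifted in most comparisons.

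For wild-type D1 against wild-type D2 cells, which asks whether the 2 kinds of pyramidal neuron differ without the knockout, Pex5l was lower in D1 cells by a difference of -1.95 log2 units, where the median of 11059 measured genes was -0.14. It was the only one of the 3 measured members at or beyond 1 unit lower, as were 13.2% of the measured genes; none was 1 unit higher, as were 9.21%. Among gene-rich cells it was at -4.66, where the median was -0.48 and 33.4% of genes lay at least 1 unit lower. The mean log2 level there was 3.15 ± 3.35 in wild-type D1 (n = 9) and 7.81 ± 1.90 in wild-type D2 cells (n = 13). Leaving out any 1 of the 41 cells kept the difference between -2.37 and -1.73. Within single ages it was -3.78 at 29 days, -3.06 at 30 days, 0.35 at 31 days and -1.26 at 34 days, from 2 to 7 cells a group. The 31-day cells, 3 of each kind with reads in 1 D1 and 1 D2 cell, thus did not show it.

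For knockout D1 against knockout D2 cells the difference in Pex5l was -1.95, beside a median of 0.29, and 21% of measured genes lay at least 1 unit lower. Among gene-rich cells it was -3.03 beside a median of 0.02, with 26.2% of genes that low. The mean log2 level in gene-rich knockout cells was 4.48 ± 3.85 for D1, against 7.51 ± 1.84 for D2 (n = 6 each). It was -1.06 without knockout D1 cell 1 or cell 5, neither of which had a Pex5l read, and -3.03 without knockout D2 cell 5, the one with few genes. No cell is shared with the wild-type comparison. The log2 ratio of mean CPM was smaller in size, at -0.82 in knockout cells and -1.66 in wild-type cells.

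Hcn2 and Hcn3 did not stand apart in the D1 to D2 comparisons. Hcn2, the subunit with the strongest response to cyclic AMP among those measured, was at -0.41 in wild-type and -0.24 in knockout cells, D1 minus D2. Hcn3 was at -0.30 in wild-type and 0.37 in knockout cells. Among gene-rich cells Hcn2 was at -0.66 and -0.58, and Hcn3 at -0.75 and 0.01, for wild-type and knockout cells in turn. Within ages the sign of the wild-type difference turned for both: Hcn2 was at -2.08, 2.505, 1.75 and -2.69 and Hcn3 at -3.64, 1.496, 2.30 and -1.15 at 29, 30, 31 and 34 days.

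**Figure D3:**
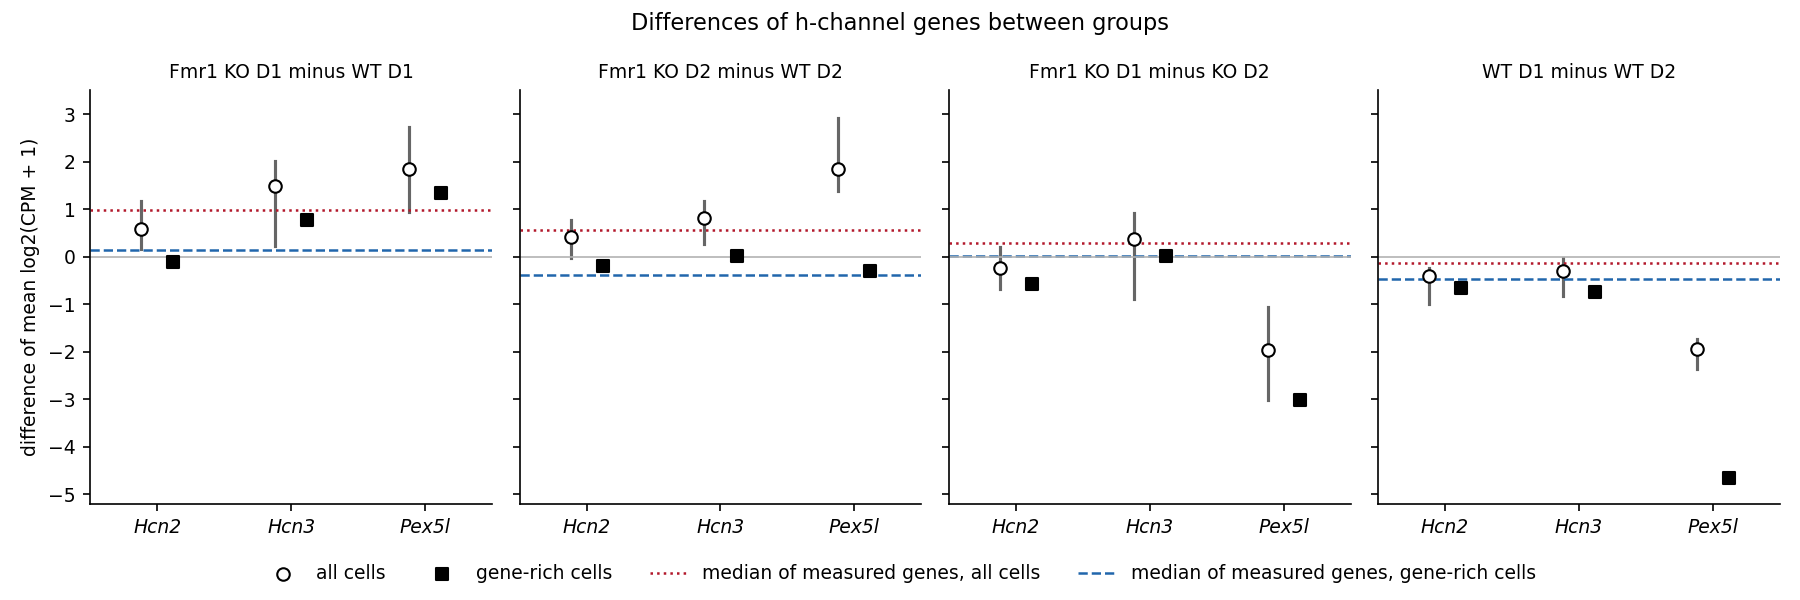
Difference of mean log2(CPM + 1) for Hcn2, Hcn3 and Pex5l in the 4 comparisons. Open circles give all cells, with a bar for the range when each cell is left out in turn, filled squares give gene-rich cells, and the dotted and dashed lines give the median of all measured genes in all cells and in gene-rich cells. Pex5l lies near -2 in both D1 minus D2 comparisons and lower in gene-rich cells (-3.03 and -4.66), while its values of 1.84 and 1.85 for knockout minus wild type stand beside raised medians.

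The knockout comparisons ask how the loss of FMRP, the RNA-binding protein made from Fmr1, goes with h-channel transcripts. In D1 cells, knockout minus wild type, Pex5l was at 1.84, Hcn3 at 1.49 and Hcn2 at 0.59, so 2 of 3 measured members were at least 1 unit higher. The median of 10792 measured genes was 0.98 and 49.6% of them were that high, and 8.02% at least 1 unit lower, as no member was. In gene-rich D1 cells Pex5l was at 1.33, Hcn3 at 0.78 and Hcn2 at -0.12, beside a median of 0.14 and 28.5% of genes at least 1 unit higher. Single cells carried much of this. Without knockout D1 cell 1 the Hcn3 difference was 0.23, and without cell 2 it was 0.70. That of Pex5l was 0.93 without knockout D1 cell 3, the only one of 31 days, and 1.22 without cell 4.

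In D2 cells, knockout minus wild type, Pex5l was at 1.85, Hcn3 at 0.82 and Hcn2 at 0.43, beside a median of 0.56 and 36.4% of measured genes at least 1 unit higher and 6.91% lower. In gene-rich D2 cells the values were -0.30 for Pex5l, 0.02 for Hcn3 and -0.19 for Hcn2, beside a median of -0.39. The Pex5l difference over all D2 cells turned when cells with few genes were left out, and 6 of 7 knockout and 13 of 26 wild-type D2 cells were gene-rich. Without knockout D2 cell 5, which was not, it was 2.92. Its log2 ratio of mean CPM was 0.29. The knockout differences in D1 and D2 cells, 1.84 and 1.85 over all cells and 1.33 and -0.30 over gene-rich cells, were not tested against each other.

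Hcn2 was read in 4 of 6 knockout D1 cells (66.7%), 5 of 15 wild-type D1 (33.3%), 5 of 7 knockout D2 (71.4%) and 13 of 26 wild-type D2 cells (50%). Its levels were low wherever it was found, with 1 exception. The lowest, median and highest values were 0, 4.08 and 14.6 CPM in knockout D1 cells and 0, 0 and 671 CPM in wild-type D1 cells. They were 0, 1.81 and 25.7 CPM in knockout D2 cells and 0, 0.301 and 53.0 CPM in wild-type D2 cells. Wild-type D1 cell 10, aged 30 days, held 1343 Hcn2 reads, or 84.3% of those of its group, and the next highest of the 54 cells had 53.0 CPM. Its mean log2 levels of interneuron (3.19), astrocyte (4.83) and oligodendrocyte markers (3.41) were the highest of the 34 gene-rich cells, and that of microglial markers (7.35) was the third highest; their part in its Hcn2 value was not tested. With that cell the group mean was 47.3 ± 173 CPM, and without it 2.81 CPM. The other means were 5.18 ± 6.03 CPM in knockout D1, 8.37 ± 11.2 in knockout D2 and 8.85 ± 15.6 in wild-type D2 cells. Without it the knockout minus wild-type difference in D1 cells was 1.18 in place of 0.59, and the log2 ratio of mean CPM with it was -2.97.

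Hcn3 was read in 2 of 6 knockout D1 cells (33.3%), 3 of 15 wild-type D1 (20%), 4 of 7 knockout D2 (57.1%) and 9 of 26 wild-type D2 cells (34.6%). It was found in few cells, some of which held much of it. In knockout D1 cells it was at 446 and 88.6 CPM in 2 cells and at 0 in the other 4. In wild-type D1 cells it was at 331, 136 and 0.384 CPM in 3 cells and at 0 in the other 12. In knockout D2 cells the lowest, median and highest values were 0, 2.17 and 43.1 CPM, and in wild-type D2 cells 0, 0 and 299 CPM. The means, 89.0 ± 178 CPM in knockout D1, 31.2 ± 90.1 in wild-type D1, 11.2 ± 16.2 in knockout D2 and 24.3 ± 66.8 in wild-type D2 cells, were each smaller than their SD. Cells with Hcn3 reads had a median of 7477 genes with a read, and cells without had 4018.

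Hcn4, the main subunit of the cardiac pacemaker, gave 3 reads in all 54 cells. Of these, 2 were in knockout D2 cell 7 (0.723 CPM) and 1 in wild-type D1 cell 15 (0.0959 CPM). None of 6 knockout D1 cells had a read, which allows up to 0.0929 CPM over their summed counts. None of 26 wild-type D2 cells had one, which allows up to 0.0313 CPM. These limits pool the reads of a group and take no account of spread between cells. Counted by cell, reads in up to 50% of knockout D1 and 11.5% of wild-type D2 cells remain possible. With so few reads no difference between groups was detectable.

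Levels were compared between genes per length of merged exons (RPKM, CPM divided by exon length in kilobases). In D2 cells Pex5l came first, with 26.7 ± 23.5 RPKM in knockout and 21.8 ± 31.6 in wild-type cells. Hcn3 followed with 2.69 ± 3.91 in knockout and 5.85 ± 16.1 in wild-type D2 cells, then Hcn2 with 2.62 ± 3.49 and 2.77 ± 4.89. In knockout D1 cells the order was Hcn3 (21.4 ± 42.9), Pex5l (15.1 ± 22.7) and Hcn2 (1.62 ± 1.89). In wild-type D1 cells it was Hcn2 (14.8 ± 54.04, from 1 cell), Hcn3 (7.51 ± 21.7) and Pex5l (6.84 ± 14.1). Hcn4 was last throughout. Neighbours in each order differed by less than their SD over cells, apart from Pex5l and Hcn3 in knockout D2 cells, where the gap of the means exceeded either SD. By median over cells Pex5l was highest in each group, at 5.50, 0.180, 26.1 and 3.94 RPKM in knockout D1, wild-type D1, knockout D2 and wild-type D2 cells. The lengths join all annotated transcripts, and which of them the cells used was not measured.

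A channel subunit and its partner act in the same cell, so their joint detection was counted. Of the 54 cells, 8 had reads of none of the 4 genes, 20 of 1, 15 of 2, 11 of 3 and none of all 4. Hcn2 and Pex5l were read together in 19 cells, and Hcn2 without Pex5l in 8. Hcn3 and Pex5l were read together in 14 cells and Hcn3 without Pex5l in 4, and Hcn2 and Hcn3 together in 11. Among gene-rich cells, a subunit was read without Pex5l in 1 of 6 knockout D1, 4 of 9 wild-type D1, 0 of 6 knockout D2 and 0 of 13 wild-type D2 cells. The highest Hcn2 value of the series (671 CPM) and the 2 highest of Hcn3 (446 and 331 CPM) were in D1 cells with no Pex5l read, as was the fifth highest of Hcn3 (136 CPM). This was noticed after the values were seen, and other high cells differed. Of the next highest Hcn2 values, all in wild-type cells, 53.0 and 40.01 CPM in D2 cells and 33.3 CPM in a D1 cell went with 407, 202 and 364 CPM of Pex5l. Another, 40.4 CPM, was in a D2 cell with no Pex5l read that was not gene-rich. The third highest Hcn3 value, 299 CPM in wild-type D2 cell 13, went with 10.4 CPM of Pex5l, and the next, 153 CPM in wild-type D2 cell 6, with 522 CPM.

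**Figure D4:**
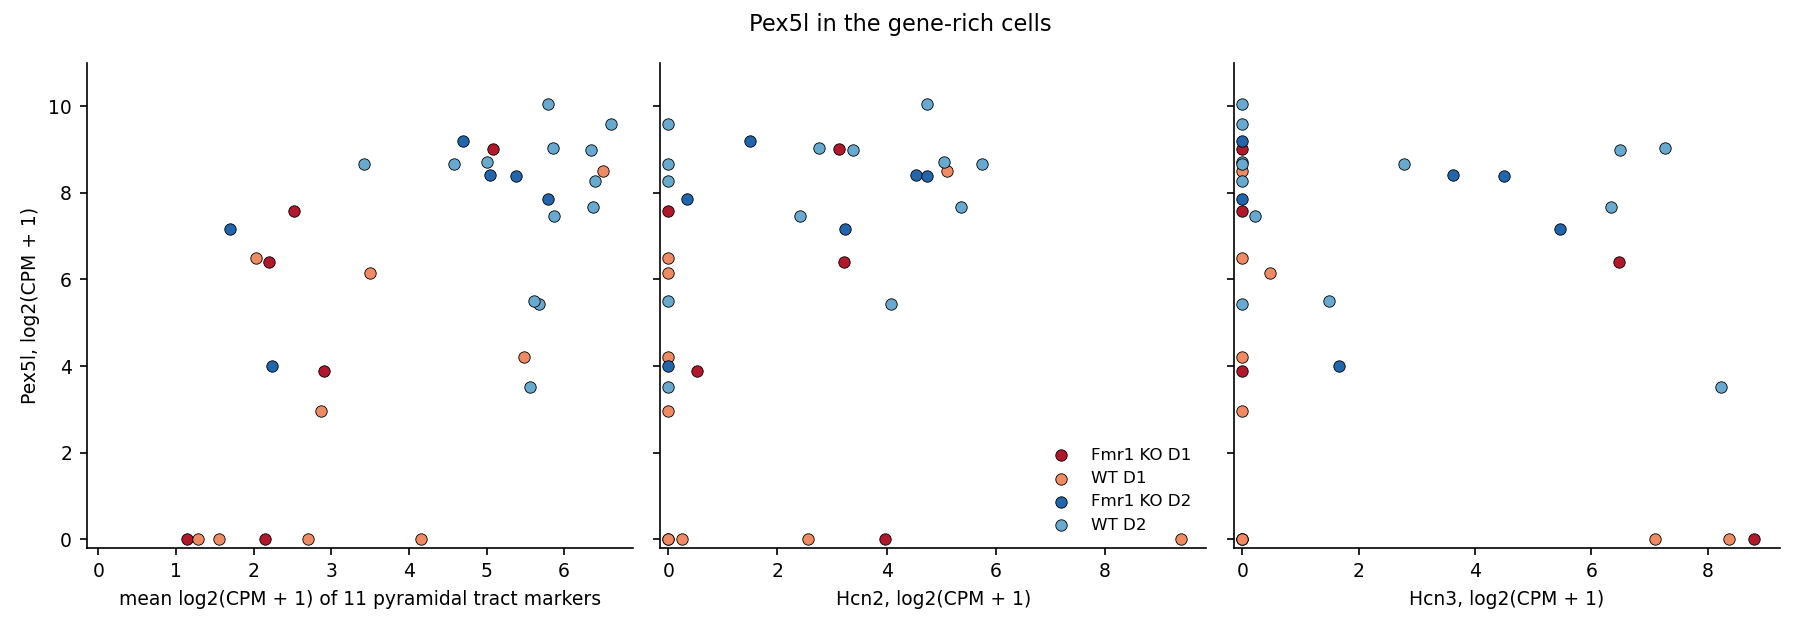
Pex5l level against the mean level of 11 layer 5 pyramidal tract markers (left), Hcn2 (middle) and Hcn3 (right) in the 34 gene-rich cells, all as log2(CPM + 1), coloured by group. Pex5l is higher in cells with more of the tract markers, and the 6 cells at 0 on the Pex5l axis are all D1 cells, among them those farthest right for Hcn2 and Hcn3.

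Across the 34 gene-rich cells the Spearman correlation of Pex5l was 0.30 with Hcn2 and -0.18 with Hcn3, and that of Hcn2 with Hcn3 was 0.05. Such values in sparse counts are no finding. Pex5l correlated more with markers of layer 5 pyramidal tract neurons, the deep cells that project below the cortex (0.61 for the mean log2 level of 11 genes). Groups share in this: within the 15 gene-rich D1 cells the correlation was 0.51 and within the 19 gene-rich D2 cells 0.20. Pex5l also varied with measures of the library. Its correlation with the number of genes with a read was 0.37 over the gene-rich cells. With total counts it was -0.12 over these cells, 0.21 within gene-rich D1 cells and -0.63 within gene-rich D2 cells.

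The tract markers themselves were lower in D1 cells. Of 11 measured in wild-type cells, 7 were at least 1 unit lower in D1 than in D2 cells and none that much higher, with a median of -1.47, where 13.2% of all measured genes were that much lower. The largest differences were those of Bcl11b, the transcription factor Ctip2 (-3.08), Npr3, a natriuretic peptide clearance receptor (-2.05), and the POU factor Pou3f1 (-1.81). In knockout cells 6 of 9 were at least 1 unit lower in D1 cells, where 21% of all measured genes were, with a median of -1.22, led by Bcl11b (-3.41), the sulfatase Sulf2 (-2.13) and Npr3 (-1.83). Intratelencephalic and upper-layer markers had medians of 0.20 in wild-type and 0.32 in knockout cells, D1 minus D2. Of these 8 genes, Lamp5 was at -3.42 and the layer 4 factor Rorb at 1.41 in wild-type cells. How far the tract markers bear on the Pex5l difference was not tested.

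Glial markers were read as well. The summed level of 8 microglial markers was 0.453 to 1393 CPM in knockout D1, 0 to 6592 in wild-type D1, 0.130 to 2144 in knockout D2 and 0 to 3051 in wild-type D2 cells, and that of 6 astrocyte markers reached 4599 CPM. Microglial markers differed in some comparisons. Wild-type D1 minus D2, 3 of 7 were at least 1 unit higher and 1 lower, where 9.21% and 13.2% of all measured genes were. The complement gene C1qa was at 3.68, Aif1 at 2.18 and C1qb at 2.04, and the lower gene was C1qc. In gene-rich cells 3 of 7 were that much higher and none lower, where 11.1% and 33.4% of all genes were. C1qa was then at 1.52, Aif1 at 1.85 and C1qb at 0.64. In D1 cells, knockout minus wild type, none of 7 was at least 1 unit higher, where 49.6% of all measured genes were. Lower by as much were 2 of 7, with C1qa at -3.92, where 8.02% of all measured genes were. Only C1qc of the 7 lay above 0. C1qa averaged 16.7 ± 40.99 CPM in knockout D1, 358 ± 553 in wild-type D1, 42.4 ± 79.6 in knockout D2 and 20.96 ± 65.6 in wild-type D2 cells. The correlation of Pex5l with the microglial mean in gene-rich cells was -0.10. Interneuron markers reached 17.02 CPM in knockout D1, 327 in wild-type D1, 319 in knockout D2 and 832 in wild-type D2 cells. Gad2, Slc32a1, Pvalb, Vip and Lhx6 were unread in knockout D1 cells, Slc32a1 in wild-type D1 cells and Vip in both D2 groups. Knockout D1 minus D2, 3 of 3 measured interneuron markers were at least 1 unit lower, where 21% of all measured genes were. Their median was -2.35, beside 0.29 for all measured genes. In wild-type cells none of 5 was 1 unit higher or lower, where 9.21% and 13.2% of all measured genes were. Oligodendrocyte markers reached 11213 CPM in a wild-type D1 cell, with Olig2 and Pdgfra unread in both D1 groups, and endothelial markers stayed at or under 3.19 CPM, with Cdh5 unread throughout. Their part in the results was not tested.

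The genes whose levels followed a member most closely were looked for among 7037 genes read in at least 50% of the gene-rich cells. For Pex5l they were Nfib (Spearman 0.65), a transcription factor of the nuclear factor I family, Iqgap2 (0.65), Emb (0.64), Kdm2a (0.64) and Nampt (0.63). For Hcn2 they were Eprs (0.65), Slc16a1 (0.62), Zzef1 (0.61), Phtf2 (0.61) and Clstn1 (0.59). For Hcn3 they were Lrch4 (0.63), Zfp46 (0.62), Stat2 (0.60), Heatr3 (0.59) and Mapk14 (0.56). These are the extremes of many values over 34 cells and are given as a description.

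Of the proteins that carry h-channels to the membrane or bind them, 11 genes besides Pex5l were measured. Knockout minus wild type in D1 cells, 8 were at least 1 unit higher and none lower, with a median of 2.27, where 49.6% of all measured genes were higher and their median was 0.98. Flna, the actin cross-linker filamin A, was at 4.60, the clathrin heavy chain Cltc at 4.46 and the scaffold Magi2 at 3.48. In gene-rich cells 5 were that much higher and 2 lower, with a median of 0.98, where 28.5% and 22.7% of all genes were. In D2 cells 3 were higher and none lower (median 0.43), where 36.4% of all genes were higher. In gene-rich D2 cells none was higher and 4 were lower (median -0.48), where 14.2% and 30% of all genes were. Wild-type D1 minus D2, only Flna (-1.70) of the 11 was past 1 unit. At least 1 unit lower were 13.2% of all genes, and 9.21% were that much higher. Pex5, the peroxisomal receptor that Pex5l resembles, was at -0.75. In gene-rich cells 3 of the 11 were at least 1 unit lower and none higher (median -0.63), where 33.4% and 11.1% of all genes were. Knockout D1 minus D2, 7 were at least 1 unit higher, where 32.9% of all genes were, led by Flna (3.16), Grasp (2.71) and Cltc (2.35).

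Genes that make or break down cyclic AMP, the ligand of the channel, were listed together with G protein subunits and receptors that act on its making. Of this list 17 to 19 genes were measured, so the counts are not those of enzymes alone. Knockout minus wild type in D1 cells, 13 of 19 were at least 1 unit higher and 2 lower, with a median of 2.15, where 49.6% of all genes were higher and 8.02% lower. Pde4b, a cyclic AMP phosphodiesterase, was at 4.59, Gnai1, an inhibitory G protein subunit, at 4.22 and the adenylyl cyclase Adcy9 at 4.15. In gene-rich D1 cells 11 of 18 were higher, where 28.5% of all genes were, with a median of 1.75 beside 0.14 for all genes. In D2 cells 7 of 18 were higher and 2 lower (median 0.52), where 36.4% of all genes were higher, and in gene-rich D2 cells 3 of 17 were higher and 9 lower (median -1.12), where 30% were lower. Wild-type D1 minus D2, 2 of 19 were higher and 3 lower (median -0.36), where 9.21% and 13.2% of all genes were. Gnai1 was at -2.19, Adcy5 at -1.72 and Drd1 at 1.71. Knockout D1 minus D2, 11 of 18 were higher and 2 lower (median 1.43), where 32.9% and 21% of all genes were, led by Pde4b (3.84).

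All 10 kinases and phosphatases known to act on h-channels were measured. Knockout minus wild type in D1 cells, 10 of 10 were at least 1 unit higher (median 2.60), where 49.6% of all genes were. In gene-rich D1 cells 4 of 10 were (median 0.92), where 28.5% of all genes were. Over all D1 cells the calcineurin subunit Ppp3cb was at 3.85, the protein kinase C isoform Prkca at 3.76 and the phosphatase Ptpra at 3.36. Over gene-rich D1 cells these were at 1.68, 3.86 and 1.74 in turn. In D2 cells 3 were higher and 1 lower (median 0.66), where 36.4% of all genes were higher, and in gene-rich D2 cells 1 was higher and 3 lower (median -0.42), where 14.2% and 30% were. Over all D2 cells the tyrosine kinase Src, which phosphorylates HCN subunits, was the lower gene, with a mean of 0.0750 CPM in the D2 cells of knockout mice, against 42.3 CPM without the knockout. Wild-type D1 minus D2, 1 was higher and 3 lower (median -0.87), where 9.21% and 13.2% of all genes were. Sgk1 was at 1.67 and Ptpra at -1.55. Knockout D1 minus D2, 5 were higher and none lower (median 1.26), where 32.9% of all genes were higher, led by Sgk1 (3.73).

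Other conductances that work near the resting potential, such as M-type, leak and T-type channels, were mostly lower in D1 cells without the knockout. Of 17 measured, 15 were below 0 for wild-type D1 minus D2, with a median of -0.85. The median of all measured genes was itself below 0, at -0.14. At least 1 unit lower were 7 of the 17, where 13.2% of all genes were. Among gene-rich cells 12 of 17 were that low (median -1.62, beside -0.48 for all genes), where 33.4% of all genes were. Over all wild-type cells the leak channel Kcnk1 was at -2.04, the G protein-gated Kcnj6 at -1.82 and the M-type Kcnq5 at -1.46. Over gene-rich wild-type cells these were at -2.71, -3.91 and -3.22 in turn. In knockout cells, D1 minus D2, 8 of 16 were at least 1 unit higher and 4 lower (median 0.85), where 32.9% and 21% of all genes were. In gene-rich knockout cells 2 were higher and 4 lower (median 0.40), where 27.5% and 26.2% were. Knockout minus wild type in D1 cells, 10 of 16 were higher and 1 lower (median 1.43), where 49.6% and 8.02% of all genes were, and in gene-rich D1 cells 7 of 17 were higher and 3 lower (median 0.56), where 28.5% and 22.7% were. In D2 cells, knockout minus wild type, 4 of 17 were higher and 1 lower (median 0.19), where 36.4% and 6.91% of all genes were. In gene-rich D2 cells the list turned, with 1 of 17 higher and 8 lower (median -0.85), where 14.2% and 30% of all genes were. The sodium leak channel Nalcn led both, at 5.03 in D1 and 2.49 in D2 cells, with 108 and 97.2 CPM in knockout D1 and D2 cells against 4.81 and 23.6 CPM in wild-type cells of the same kinds. In gene-rich cells it was at 4.40 and 1.94.

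Channels with a related cyclic nucleotide-binding fold were measured for 5 to 7 of 14 genes, depending on the comparison. All of these were potassium channels of the Kcnh family, and none of the 6 Cnga and Cngb genes, which encode cyclic nucleotide-gated channels, was measured. Wild-type D1 minus D2, Kcnh7 was at -1.37 and Kcnh1 at 1.35, with a median of -0.03. Knockout minus wild type, Kcnh7 was at 3.39 in D1 and 2.498 in D2 cells, and at 1.98 and -1.36 in gene-rich cells. Over the list the median difference was 1.05 for D1 and 0.15 for D2 cells.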

How the data were processed

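Libraries were made with Nextera XT from the total RNA of 1 neuron's cytosol, per the labels' protocols. The submitters' processing notes name GRCm38, Trimmomatic, STAR and featureCounts; for each tool, role, version and settings are not stated there. The authors deposited whole-number read counts per gene, by symbol (22800) and by Ensembl identifier (22880), and a normalized signal table of 14067 symbols. Tested on the files, that signal is each cell's counts times 1 factor (0.373 to 51.5 over cells); it holds 3 of the 4 members and not Hcn4. Each table has 2 columns that match no sample label and were not used, and 1 cell labelled as failing quality control was left out. No pair of cells had identical counts.

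From the counts, CPM were computed over each cell's summed gene counts, and RPKM with merged exon lengths of GENCODE vM21 (same build). Groups were compared by the mean of log2(CPM + 1). Members, gene lists and alternatives were chosen with earlier results of these data known. The members are always named; of other lists at most 3 measured genes of largest difference per comparison, and for each member with reads in at least 33.3% of the gene-rich cells the 5 genes of highest Spearman correlation. Replicate numbers are accession order only. On simulated data for knockout against wild-type D1 cells, 200 of 200 changed genes among 22800 came out in the right direction. Whether this holds for genes that, like the members, are at 0 in many cells and high in a few was not tested. Software was Python 3.11.15, numpy 2.4.6, pandas 2.3.3, scipy 1.17.1, matplotlib 3.10.9 and, for TMM factors, edgeR 4.0.16 in R 4.3.3. Alternatives were TMM library sizes, the deposited normalized values, pseudocounts of 10 and 0.1, Ensembl counts, gene-rich cells, single cells or ages left out, ages 31 and 32 only, ratios of mean or summed CPM, no filter on low values and, chosen after seeing the data, detection at 10 reads. Some list members that this rule names are left out of the text.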

Additional observations from a re-analysis of the deposited data

Results flagged for a closer look

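Hcn4 in knockout D2 cell 7 stood apart from the other 6 cells of its group: it had 2 reads (0.723 CPM), and the others had none. Because the other 6 values were 0, any read in the seventh cell would have set it apart in this way. With 2 reads the value is near the limit of what the depth can show.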

How the results depend on the processing

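The lower Pex5l level of D1 cells kept its direction and a size of at least 1 log2 unit in wild-type cells under each of the 17 settings other than leaving out single cells (-4.66 to -1.30) and under each of 41 cells left out (-2.37 to -1.73). In knockout cells it kept its direction under each of 10 such settings, 8 of them at 1 unit or more, and in each of 13 omissions (-3.03 to -1.06). The knockout differences held less well. Pex5l in D2 cells was at 1.85 over all cells, at -0.30 in gene-rich cells and at -0.60 as the ratio of summed CPM. Hcn3 in D1 cells was at 1.49, and at -1.06 without the 32-day cells, which leaves 1 knockout cell; Pex5l was then at 6.37 in place of 1.84. Hcn2, knockout minus wild type in D1 cells, was at 0.59, at -2.97 as the ratio of mean CPM and at -2.70 as that of summed CPM, and wild-type D1 minus D2 at 2.30 in place of -0.41 as the ratio of means; the high value of wild-type D1 cell 10 enters these. Hcn3 in D2 cells, knockout minus wild type, was at 0.82, and kept its direction under 13 of 15 settings (0.02 in gene-rich cells, 2.14 for ages 31 and 32 only); as the ratio of mean CPM it was at -1.06 and as that of summed CPM at -1.93. The share with a Pex5l read was 100% in gene-rich knockout D2 and wild-type D2 cells, in place of 85.7% and 69.2%. Other causes were not tested.

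Counts of genes at least 1 unit apart moved with the setting. Knockout minus wild type, they were 5349 higher (2709 to 6434) and 866 lower (278 to 2955) in D1 cells, and 4087 higher (1698 to 5488) and 776 lower (174 to 4212) in D2 cells. D1 minus D2, they were 3616 higher (2071 to 4324) and 2303 lower (1047 to 3137) in knockout, and 1018 higher (309 to 5615) and 1461 lower (331 to 3918) in wild-type cells. Leaving out the 32-day cells leaves no knockout D2 cell, so it gives no value there. No paired analysis was possible because replicate numbers follow accession order and pair no cells. Hcn4 had too few reads for any comparison, for reasons that were not tested, and absence of reads in cells with few genes shows little.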
